A study of Drosophila melanogaster with 6 samples.

Results

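The peaks compared here are those of the histone kinase JIL-1 and of H3K9acS10ph, histone H3 that carries acetylated lysine 9 beside phosphorylated serine 10. They come from chromatin immunoprecipitation and sequencing (ChIP-seq) of Kc167, an established Drosophila melanogaster line from female late embryos, grown without any treatment named in the labels. The members are every peak of either list on the main arms, which were selected by scaffold name alone: 2L, 2R, 3L, 3R, X and chromosome 4. That gives 12295 of 12417 JIL-1 peaks and 6873 of 6918 H3K9acS10ph peaks, or 19168 of the 49322 peaks in the 6 lists of the series. The other lists are H3K4me3, H3K4me1, H3K27ac and H3K27acS28ph, all from the same cell line and labelled by antibody alone. Each antibody had 1 library. There is therefore no replicate error and no test between antibodies, and the 95% Wilson and Newcombe intervals below cover counting error within a list.

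JIL-1 is a kinase with a pair of kinase domains that phosphorylates serine 10 of histone H3 in interphase chromatin. In flies it is known for its place on transcribed chromatin and for limiting the spread of heterochromatin. In H3K9acS10ph the phosphate that JIL-1 can place stands next to an acetylated lysine, a mark of active promoters and enhancers. Of the other marks, H3K4me3 is found at active promoters, H3K4me1 at enhancers and around promoters, and H3K27ac at both when they are active. H3K27acS28ph is the second phosphoacetylated form of H3, with the pair of modifications further along the same tail.

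The 2 lists differ in form. JIL-1 peaks were many and narrow, with a median width of 1076 bp (quartiles 808 and 1588 bp), and H3K9acS10ph peaks were fewer and broad, at 2228 bp (1581 and 3451 bp). JIL-1 covered 16.6 Mb and H3K9acS10ph 19.7 Mb, which is 13.8% and 16.4% of the arm length seen in the files. The authors' score per peak, which is used only within a list, had a median of 163 for JIL-1 and 337 for H3K9acS10ph. Scores pile up at 3100, which 8.92% of H3K9acS10ph and 1.35% of JIL-1 peaks reached. Score and width went together in both lists, with a Spearman rho across peaks of 0.72 for H3K9acS10ph and 0.76 for JIL-1, a description of peaks that share a library.

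Most places with H3K9acS10ph also had the kinase called, while much of the kinase lay elsewhere. At least 1 bp of JIL-1 was found under 5055 of the 6873 H3K9acS10ph peaks, 73.5% (72.5 to 74.6). In the other direction 6847 of the 12295 JIL-1 peaks, 55.7% (54.8 to 56.6), touched H3K9acS10ph. The lists had 10.0 Mb in common, which is 50.9% of the sequence under H3K9acS10ph and 60.4% of that under JIL-1. These shares depend on the length and width of the lists. Cut to its 6873 highest-scoring peaks, JIL-1 was found at 58.6% of the H3K9acS10ph peaks, and 70.0% of that shorter list touched H3K9acS10ph. With every peak replaced by 1000 bp around its midpoint, the shares were 62.5% of H3K9acS10ph and 37.1% of JIL-1 peaks. Few pairs hung on the 1 bp rule, since 193 of 7173 overlapping pairs shared 100 bp or less, and 67 H3K9acS10ph peaks without JIL-1 lay within 100 bp of one.

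The kinase was found at a similar share of H3K9acS10ph peaks on all arms, and the reverse share was low on chromosome 4. JIL-1 was present at 72.5% of H3K9acS10ph peaks on 2L, 72.4% on 2R, 72.5% on 3L, 74.0% on 3R and 76.2% on X. X exceeded the 4 large autosomal arms by 3.30 percentage points (0.651 to 5.83). The share of JIL-1 peaks with H3K9acS10ph ran from 51.4% on 2L to 59.3% on 2R and was 57.6% on X, a difference of 2.16 points from the autosomal arms (-0.0896 to 4.38). On chromosome 4, a small chromosome rich in heterochromatin, 25 of 82 JIL-1 peaks touched H3K9acS10ph, 30.5% (21.6 to 41.1). The large autosomal arms had 55.4%, and the interval of the difference runs from -33.9 to -14.3 points. Of the 30 H3K9acS10ph peaks on chromosome 4, 23 had JIL-1.

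The summits of the lists are not given, so nearness was read from peak midpoints. From an H3K9acS10ph midpoint the nearest JIL-1 midpoint was 644 bp away in the median, with quartiles of 257 and 1858 bp. It lay within 250 bp for 24.6% of the peaks, within 500 bp for 42.2% and within 1000 bp for 62.5%. With JIL-1 cut to 6873 peaks, the median distance was 1178 bp. From a JIL-1 midpoint the nearest H3K9acS10ph midpoint was further off, at a median of 1748 bp, and within 500 bp for 23.7% of peaks. Positions were read without regard to gene direction, so the sign of a distance has no upstream or downstream sense.

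**Figure D1:**
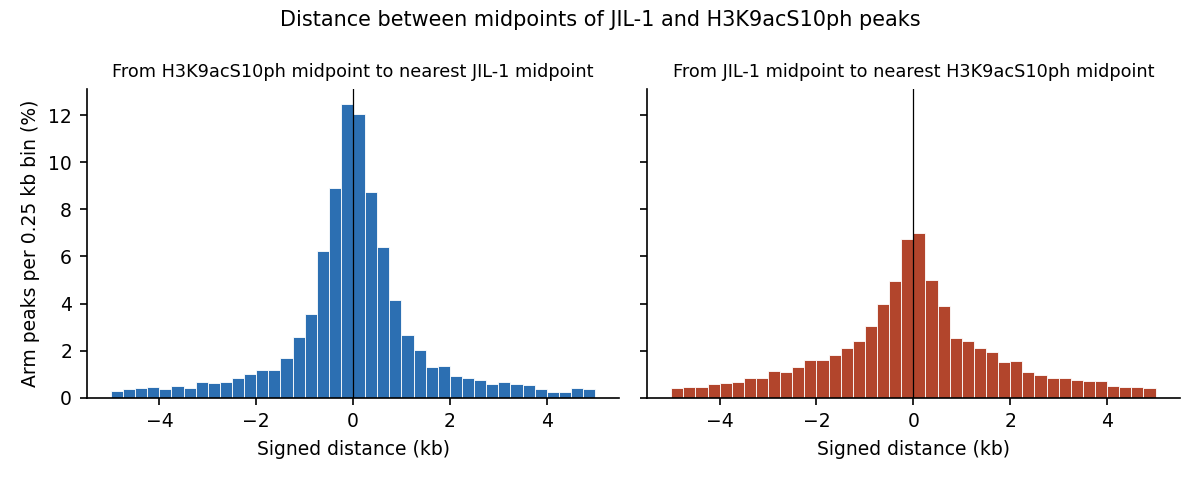
Signed distance (kb, x axis) from each H3K9acS10ph midpoint to the nearest JIL-1 midpoint (left) and from each JIL-1 midpoint to the nearest H3K9acS10ph midpoint (right), as the percentage of arm peaks per 0.25 kb bin; distances beyond 5 kb are not drawn. Both distributions are centred on 0, and the left one is narrower, with 42.2% of H3K9acS10ph midpoints within 500 bp of JIL-1 against 23.7% the other way.

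Where the peaks overlapped, the JIL-1 peak was usually the narrower one, and its midpoint lay within the H3K9acS10ph peak in 88.8% of pairs. The H3K9acS10ph peak was the wider one in 90.4% of the 7173 pairs, by a median ratio of 2.13. JIL-1 lay wholly inside H3K9acS10ph in 54.1% of pairs, the reverse held in 2.36%, and the rest, 43.6%, overlapped in part. A wide H3K9acS10ph peak counts once here for each of its JIL-1 peaks. Over the pairs in which each peak had no other partner, the median ratio was 1.53 and JIL-1 lay wholly inside in 51.3%. In the 3148 pairs in which each peak had no other partner, the midpoints were 325 bp apart in the median (quartiles 133 and 604 bp), and the JIL-1 midpoint fell within the H3K9acS10ph peak in 2991 of them. Within H3K9acS10ph peaks JIL-1 midpoints were most frequent near the centre. Of 6369 midpoints, 14.9% fell in the innermost of 10 equal steps from centre to edge and 3.22% in the outermost, and 62.3% (61.1 to 63.5) fell in the inner 50% of the peak. The inner share was 61.6% (60.3 to 62.9) within H3K4me3 peaks and 51.3% (50.1 to 52.6) within H3K4me1 peaks, where JIL-1 midpoints were nearly even from centre to edge.

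JIL-1 was also dense inside the peaks of the other marks. JIL-1 midpoints numbered 323 per Mb inside H3K9acS10ph peaks and 58.9 per Mb outside, a ratio of 5.49. The same ratio was 5.78 for H3K4me3, 5.32 for H3K27ac, 3.81 for H3K27acS28ph and 3.26 for H3K4me1. Over whole lists JIL-1 was found at 73.5% of H3K9acS10ph, 67.9% of H3K4me3, 71.8% of H3K4me1, 81.7% of H3K27ac and 77.4% of H3K27acS28ph peaks. With 1000 bp windows these shares were 62.5%, 60.5%, 45.9%, 66.3% and 65.3%. Lists of equal length gave another order, but that cut keeps 5222 of 6873 H3K9acS10ph, 9412 H3K4me3 and 9529 H3K4me1 peaks, the highest-scoring ones. With the 3 longer lists cut to their 5222 highest-scoring arm peaks, as many as H3K27ac has, JIL-1 was found at 82.5% of H3K9acS10ph (81.4 to 83.5), 86.5% of H3K4me3 (85.5 to 87.4), 86.3% of H3K4me1 and 81.7% of H3K27ac peaks. With 1000 bp windows in place of peaks of unequal width, the shares of the same lists were 69.4% (68.1 to 70.6), 76.3% (75.1 to 77.4), 49.9% (48.5 to 51.2) and 66.3% (65.0 to 67.5), so H3K4me1 was then the lowest.

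H3K9acS10ph peaks mostly held a single JIL-1 peak, and several in the widest domains. No JIL-1 peak was found in 1818 of them (26.5%), 1 in 3455 (50.3%), 2 in 1220 (17.8%), 3 in 278 (4.04%), 4 in 76, 5 in 17 and 6 or more in 9. The mean was 1.04 over all peaks and 1.42 over those with any, and it was 0.666 over all peaks when every peak was cut to 1000 bp. The median width went with the number, from 1666 bp with no JIL-1 peak through 2150 bp with 1 and 3675 bp with 2 to 13074 bp with 6 or more. Median scores were 108, 363 and 1271 for 0, 1 and 2 JIL-1 peaks, 2487 for 3, 2235 for 4, 2998 for 5 and 2035 for 6 or more, so that beyond 3 they did not follow the number as the widths did. The reverse was rare, with 316 JIL-1 peaks spanning 2 H3K9acS10ph peaks and 5 spanning 3. Overlapping peaks formed 4729 groups, of which 66.6% were 1 to 1, 26.9% had 1 H3K9acS10ph peak with several JIL-1 peaks, 1.42% had 1 JIL-1 peak with several of the mark, and 5.12% had several of both.

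**Figure D2:**
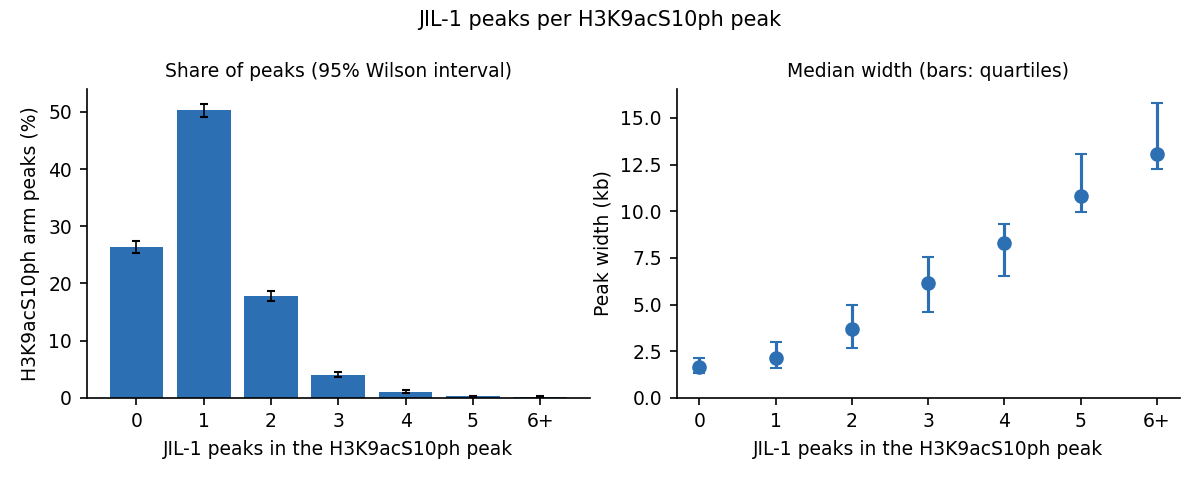
Left, percentage of the 6873 H3K9acS10ph arm peaks by the number of JIL-1 peaks they overlap, with 95% Wilson intervals. Right, median width (kb) of the peaks in each class, with quartiles as bars. The 1-peak class is the largest at 50.3%, and the median width goes from 1666 bp with none to 13074 bp with 6 or more.

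The domains with the most kinase peaks show this layout. Positions are 1-based on scaffolds named as in release 5 of the fly genome, and genes were not assigned to them. An H3K9acS10ph peak of 17.5 kb on 3R, from 23767241 to 23784693, held 7 JIL-1 peaks of 1142 to 4169 bp, and the highest-scoring of them (1256) lay 1594 bp from its midpoint. A peak of 15.9 kb on 3L, from 16570763 to 16586645, held 6, with JIL-1 scores from 107 to 2683. A peak of 15.8 kb on X, from 21214595 to 21230422, also held 6, with scores from 54.2 to 1322. Each of these domains overlapped all 4 other marks, as did 1965 of the 6873 H3K9acS10ph arm peaks. Those 1965 peaks had a median width of 3530 bp, and so wide a domain has more room to overlap any mark. The JIL-1 peak over the most H3K9acS10ph peaks was 11.6 kb long, on 2R from 2518537 to 2530175, and spanned 3 of them.

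Among the strongest H3K9acS10ph peaks as deposited the kinase was almost always called. The highest score decile had a median width of 4687 bp and the lowest 1371 bp. By decile of H3K9acS10ph score, the share with JIL-1 went from 43.2% (39.5 to 46.9) in the lowest through 57.3% in the fourth and 82.8% in the sixth to 99.6% (98.7 to 99.9) in the highest, and was higher at each of 9 steps. Median scores of these deciles ran from 57.6 to 3100. The difference between the highest and lowest decile was 56.4 points (52.6 to 60.1) and was 40.2 points with 1000 bp windows. With these windows the share was 39.8% in the lowest decile and 80.1% (76.9 to 82.9) in the highest. It was nearly level over the last deciles, at 78.9% in the eighth and 79.0% in the ninth. Relative to the sequence covered, JIL-1 midpoints numbered 24.9 per 100 kb of the lowest score decile, 31.7 in the fifth and 33.9 in the highest, with the most in the seventh, at 35.9.

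By decile of H3K9acS10ph width, the share with JIL-1 went from 48.7% (45.0 to 52.4) to 96.5% (94.9 to 97.6), a difference of 47.8 points. That difference was much smaller with 1000 bp windows, at 11.1 points (5.86 to 16.3). The share with windows had a maximum of 74.5% in the eighth decile and was 58.7% in the widest. A window covers only the middle of a peak in the widest decile, where the median width was 6698 bp. In the narrowest decile (1166.5 bp) it covers most of the peak. JIL-1 midpoints per 100 kb were 35.9 in the narrowest and 29.0 in the widest decile.

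For JIL-1 peaks the order of the measures was the other way round. By decile of JIL-1 score, the share with H3K9acS10ph went from 27.9% (25.5 to 30.5) in the lowest to 76.7% (74.2 to 78.9) in the eighth, and was 71.0% (68.4 to 73.5) in the highest, below the eighth and the ninth (76.6%). By decile of JIL-1 width it went from 17.3% (15.3 to 19.5) to 87.9% (85.9 to 89.6), a difference of 70.6 points (67.6 to 73.2), and 42.2 points with 1000 bp windows. As deposited, the strongest JIL-1 peaks were thus not those with the highest share of H3K9acS10ph, and the widest were. With 1000 bp windows the widest decile did not stand out, at 56.2% against 56.3% in the ninth. H3K9acS10ph midpoints numbered 9.86 per 100 kb of the narrowest JIL-1 decile, 28.8 in the eighth and 21.6 in the widest.

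**Figure D3:**
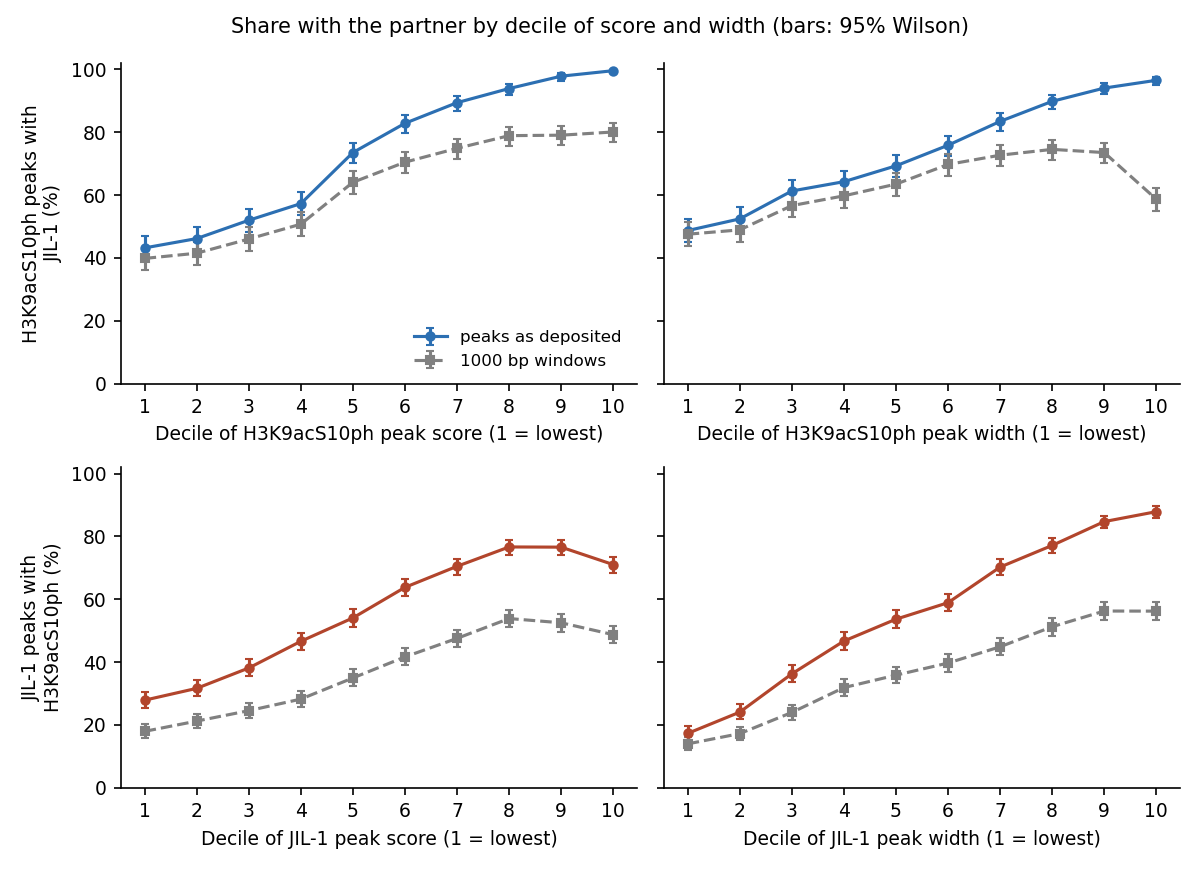
Percentage of H3K9acS10ph peaks with JIL-1 (top) and of JIL-1 peaks with H3K9acS10ph (bottom) by decile of score (left) and of width (right), decile 1 the lowest; bars are 95% Wilson intervals. Circles are peaks as deposited and grey squares are 1000 bp windows around midpoints. As deposited, JIL-1 reaches 99.6% in the highest H3K9acS10ph score decile. H3K9acS10ph is at 71.0% in the highest JIL-1 score decile, below the eighth. With 1000 bp windows these deciles are at 80.1% and 48.7%.

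Each measure was also read with the other kept within a range, which holds the other only loosely. Within the middle 50% of H3K9acS10ph widths, from 1581 to 3451 bp, the share with JIL-1 still went from 46.5% in the lowest to 97.7% in the highest score decile. Within the middle 50% of JIL-1 widths, from 808 to 1588 bp, the share with H3K9acS10ph was 52.4% in the lowest score decile, 65.7% in the seventh and 49.7% in the highest. The difference between highest and lowest was then -2.68 points (-8.24 to 2.90), against 43.1 points over all widths, 12.2 points in the 6873 highest-scoring JIL-1 peaks and 8.22 points when both lists were cut to their upper 50% by score. With score held to its middle 50%, the share went from 22.6% to 80.9% across JIL-1 width deciles and from 65.1% to 88.6%, or 23.5 points, across H3K9acS10ph width deciles. Divided into 3 equal classes of each measure, JIL-1 peaks of the narrowest class touched H3K9acS10ph in 26.5%, 32.2% and 31.5% of cases from the lowest to the highest score class. In the widest class these shares were 56.0%, 76.3% and 86.1%. Narrow H3K9acS10ph peaks had JIL-1 in 46.7%, 72.8% and 86.7% of cases across the score classes.

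**Figure D4:**
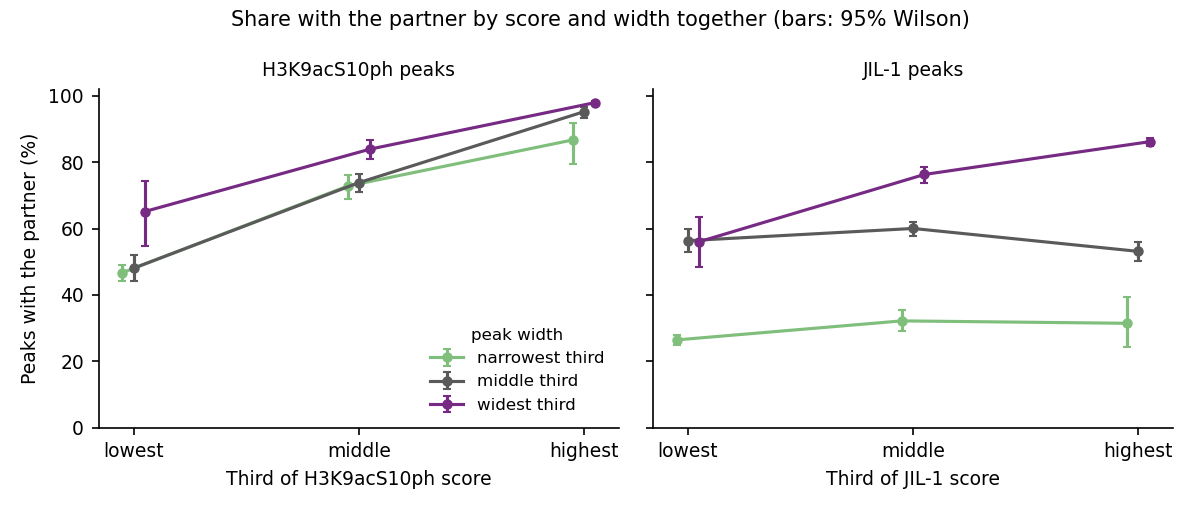
Percentage of H3K9acS10ph peaks with JIL-1 (left) and of JIL-1 peaks with H3K9acS10ph (right) by score class (x axis, 3 equal classes) and by width class (line colour, 3 equal classes); bars are 95% Wilson intervals. The H3K9acS10ph lines climb with score in every width class, whereas the line for the narrowest JIL-1 peaks stays between 26.5% and 32.2%.

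Strong kinase peaks without the mark were narrower and carried fewer of the other marks. The highest JIL-1 score decile held 873 peaks with H3K9acS10ph and 356 without, and the latter had the higher median score, 1896 against 1671. Their median widths were 2251 bp with the mark and 1254 bp without (quartiles 1113 and 1705 bp), and those without lay a median of 7067 bp from the nearest H3K9acS10ph peak. H3K4me3 was found at 26.4% of the strong JIL-1 peaks without H3K9acS10ph and at 87.9% of those with it. H3K27ac was found at 36.2% and 92.1%, and H3K4me1 at 62.4% and 97.3%. None of the 4 other marks was found at 115 of the 356 peaks (32.3%), against 2 of the 873 with H3K9acS10ph. The marks were counted on peaks as deposited, and the part of width in these contrasts was not tested. The JIL-1 peaks of highest score without the mark lay on X from 18264325 to 18266236, on 2R from 10321302 to 10322487 and on 3R from 12528160 to 12529413. They stood 1313, 20340 and 49027 bp from H3K9acS10ph and carried 3, 0 and 1 of the other 4 marks.

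The counterpart was nearly empty. Only 3 of the 687 H3K9acS10ph peaks in the highest score decile lacked JIL-1. They lay on 2L from 9965735 to 9968736, on 3R from 18315077 to 18317616 and on 3L from 21560956 to 21563395, with scores of 3100 each. All 3 carried the 4 other marks, as did 617 of the 684 peaks with JIL-1 in the same decile (90.2%). The nearest JIL-1 peak was 3592, 1578 and 10240 bp away. Of the strongest shared peaks below the pile-up, that on X from 827669 to 830632 held a JIL-1 peak with a score of 1935, that on 3R from 11970707 to 11974764 one of 942 and that on 2R from 1866996 to 1871125 one of 453. For each of the 5055 shared H3K9acS10ph peaks the highest-scoring overlapping JIL-1 peak was taken. Its median score went from 163 in the lowest score decile of the mark to 930.5 in the highest. The median width of the mark in these deciles was 1451 and 5222 bp, and wider peaks had more JIL-1 peaks to take the highest from. Spearman's rho between the scores was 0.40 over the 3148 pairs with 1 peak of each and 0.47 between their widths, given as a description of peaks from 2 libraries.

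Shared peaks carried the promoter and enhancer marks far more often than peaks of 1 list only. Over all JIL-1 arm peaks, 51.9% overlapped H3K4me3, 64.7% H3K4me1, 53.9% H3K27ac and 22.1% H3K27acS28ph. At JIL-1 peaks shared with H3K9acS10ph, H3K4me3 was present in 79.0% (78.0 to 80.0) and at JIL-1-only peaks in 17.9% (16.9 to 18.9), a difference of 61.1 points (59.7 to 62.5). H3K27ac was present in 81.2% and 19.4%, a difference of 61.8 points. H3K4me1 was present in 88.6% and 34.7%, a difference of 54.0 points. H3K27acS28ph was present in 37.4% and 2.81%, a difference of 34.6 points. The mean number of the 4 marks was 2.86 at shared and 0.748 at JIL-1-only peaks, and the difference of 2.11 marks was 1.30 with 1000 bp windows. In the window setting the classes themselves changed, with 7730 JIL-1-only peaks in place of 5448. No other mark was found at 53.4% of the JIL-1-only peaks (2907 of 5448) and at 2.85% of the shared ones.

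H3K9acS10ph peaks without the kinase overlapped the other marks more often than JIL-1-only peaks did, as deposited and with 1000 bp windows. As deposited they were also the wider class. With 1000 bp windows the classes were set by window overlap too, which gave 2575 H3K9acS10ph-only and 7730 JIL-1-only peaks. As deposited there were 1818 and 5448, so some peaks single with windows are shared as deposited. With windows H3K4me3 was at 51.6% of H3K9acS10ph-only and 29.0% of JIL-1-only peaks. H3K4me1 was then at 37.2% and 28.5%, H3K27ac at 28.3% and 15.3%, and H3K27acS28ph at 15.5% and 9.35%. Over all H3K9acS10ph arm peaks, 74.2% overlapped H3K4me3, 80.2% H3K4me1, 69.9% H3K27ac and 32.9% H3K27acS28ph. H3K4me3 was present at 82.8% of the shared (81.7 to 83.8) and 50.3% of the H3K9acS10ph-only peaks (48.0 to 52.6), a difference of 32.5 points. H3K4me1 was present at 88.8% and 56.3%, also 32.5 points apart. H3K27ac was present at 81.7% and 37.1%, a difference of 44.6 points (42.1 to 47.0). With 1000 bp windows the H3K27ac difference was 27.1 points (24.8 to 29.4) and that of H3K4me3 26.0 points (23.7 to 28.3). With every list cut to its upper 50% by score they were 23.1 and 16.8 points, and those of H3K4me1 and H3K27acS28ph were 19.5 and 17.3 points. H3K27acS28ph was present at 40.8% and 11.2%, a difference of 29.5 points that was 10.7 points within the middle 50% of scores. The mean number of marks was 2.94 and 1.55. That difference of 1.39 marks was 0.866 with 1000 bp windows and 0.767 when every list was cut to its upper 50% by score. In the H3K27ac list 58.2% of the peaks stood at 3100 or more, so that its cut was made by width among tied scores. The classes also differed in form, since shared H3K9acS10ph peaks had a median width of 2585 bp and a median score of 615, against 1666 bp and 108 for those without JIL-1. The JIL-1 medians were 1331 bp and 259 for shared, and 866 bp and 97.5 for JIL-1-only peaks. In the middle 50% of widths all 8 differences kept their sign, from 22.1 points for H3K27acS28ph in the H3K9acS10ph list to 55.8 points for H3K27ac in the JIL-1 list. With 1000 bp windows they lay between 15.4 points for H3K4me1 in the H3K9acS10ph list and 46.9 points for H3K4me3 in the JIL-1 list, where that for H3K4me1 was 21.6 points. How much of the contrast comes with width and score was not tested further.

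**Figure D5:**
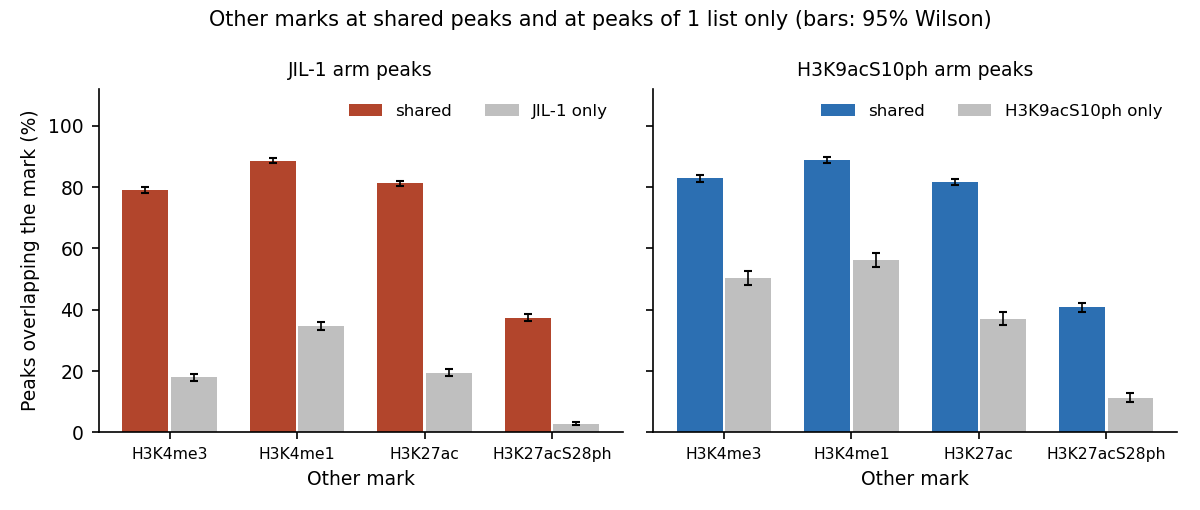
Percentage of JIL-1 (left) and H3K9acS10ph (right) arm peaks that overlap each of the 4 other marks by at least 1 bp, for shared peaks (coloured) and peaks of 1 list only (grey), with 95% Wilson intervals. Every grey bar is below its coloured neighbour, and the JIL-1-only bars are lower than the H3K9acS10ph-only bars. JIL-1-only peaks are also narrower, with a median width of 866 bp against 1666 bp.

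The combinations of marks, counted on peaks as deposited, differed in share between the 2 one-list classes. Shared H3K9acS10ph peaks most often carried all 4 marks (36.9%) or H3K4me3 with H3K4me1 and H3K27ac (32.7%), marks known to occur together at active promoters and their flanks. H3K9acS10ph-only peaks were divided among H3K4me3 alone (20.7%), no other mark (18.2%), H3K4me1 with H3K27ac (15.7%), H3K4me1 alone (13.0%) and the triple combination (12.9%). JIL-1-only peaks with a mark had mostly H3K4me1 alone (15.8% of all JIL-1-only peaks) or H3K4me1 with H3K27ac (9.86%), and H3K4me3 alone in 8.41%. H3K4me1 with H3K27ac was thus less frequent there than at H3K9acS10ph-only peaks, and H3K4me1 alone was close in both. Median widths were 866 bp for JIL-1-only and 1666 bp for H3K9acS10ph-only peaks, and the part of width was not tested.

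Read from the marks, the partner was found more often with each further mark. Of JIL-1 peaks with none of the 4 marks, 6.29% (5.49 to 7.20) touched H3K9acS10ph, and the share was 30.9% with 1, 63.8% with 2, 89.5% with 3 and 96.8% with 4. For H3K9acS10ph peaks the share with JIL-1 was 29.3% (25.3 to 33.6) with none, then 43.0%, 62.6%, 86.6% and 94.8%. Median peak width went the same way, from 747 to 1767 bp for JIL-1 and from 1532 to 3530 bp for H3K9acS10ph, and its part in these shares was not tested. Where H3K4me3 and H3K4me1 were both present, 91.5% of JIL-1 peaks had H3K9acS10ph, against 51.0% with H3K4me3 but not H3K4me1 and 45.6% with H3K4me1 but not H3K4me3.

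Peaks without a partner were not mostly near misses. The gap to the nearest JIL-1 peak from an H3K9acS10ph-only peak was 2225 bp in the median, within 500 bp for 333 of 1818 peaks (18.3%) and over 10 kb for 199. From a JIL-1-only peak to H3K9acS10ph it was 5015 bp in the median, within 500 bp for 11.5% and over 10 kb for 1877 of 5448 (34.5%). Counting gaps of up to 500 bp as shared would give JIL-1 at 78.4% of H3K9acS10ph peaks and H3K9acS10ph at 60.8% of JIL-1 peaks.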

How the data were processed

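Chromatin of Kc167 cells was fixed with formaldehyde, sonicated and precipitated with 1 of 6 antibodies, per the labels' protocols. The submitters' processing notes name Bowtie 0.12.5 as the aligner. For each sample the authors deposited a peak list whose peak names start with MACS, with a score per peak. Neither the settings of the caller nor an input control nor the build is given in the sources used here. What the deposited score measures is not stated either, so it was used only to rank peaks within a list. Read depth is unknown, since the lists hold no read counts, and it moves the number and width of called peaks. The positions follow scaffold names of release 5, and the gene table at hand is of release 6, so genes were not assigned.

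Peaks overlapped when they shared at least 1 bp. Windows of 1000 bp around the midpoint shorten wide peaks and lengthen narrow ones. In that setting shared and single peaks were set by overlap of the windows. Deciles were cut by rank within a list, with ties in score broken by width. Shares have Wilson and differences have Newcombe 95% intervals; neighbouring peaks are not independent, so both are too narrow for more than counting error. The members, settings and lists were chosen with earlier results of these data known. Named regions are the 3 peaks at the top of each of 4 rankings (most JIL-1 peaks, highest shared score below 3100, highest score without JIL-1, highest score without H3K9acS10ph) and the JIL-1 peak over the most H3K9acS10ph peaks. The counting of overlaps, distances and intervals was tested on simulated data. Python 3.11.15, numpy 2.4.6, scipy 1.17.1, pandas 2.3.3 and matplotlib 3.10.9 were used.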

Additional observations from a re-analysis of the deposited data

Results flagged for a closer look

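Peaks outside the main arms were not part of the comparisons and are given here as values. JIL-1 had 122 such peaks on the assembled heterochromatin scaffolds and the unplaced collections U and Uextra, and 31 of them (25.4%, 95% Wilson interval 18.5 to 33.8) overlapped H3K9acS10ph. H3K9acS10ph had 45, of which 27 (60.0%, 45.5 to 73.0) overlapped JIL-1. On 3LHet, the scaffold with the most of them, 11 of 42 JIL-1 peaks overlapped the mark and 9 of 11 H3K9acS10ph peaks overlapped the kinase. On U 0 of 14 JIL-1 peaks overlapped H3K9acS10ph (interval up to 21.5%), and on Uextra 0 of 7 (up to 35.4%). Median scores were 83.6 for the JIL-1 and 278 for the H3K9acS10ph peaks off the arms.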

How the results depend on the processing

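Of the differences below, all kept their sign under every alternative run except the JIL-1 score difference. The shares, the median distance and the mean count cannot be negative, so only their size could change. Differences between deciles are highest minus lowest, in percentage points of peaks with the partner, and differences in marks are shared minus single peaks. Where at least 50% of the shorter peak had to overlap, JIL-1 was at 70.3% of H3K9acS10ph peaks and H3K9acS10ph at 52.2% of JIL-1 peaks, the mean number of JIL-1 peaks was 0.939, the H3K9acS10ph decile differences were 61.9 (score) and 52.3 (width), and the JIL-1 list differed by 1.89 marks. Windows of 1000 bp gave shares of 62.5% and 37.1%, a mean of 0.666, decile differences of 40.2 and 11.1 for H3K9acS10ph and 30.8 and 42.2 for JIL-1, and 0.866 (H3K9acS10ph) and 1.30 (JIL-1) marks. Cutting every list to its upper 50% by score, with ties broken by width (in H3K27ac 58.2% of scores were tied at 3100 or above), gave JIL-1 at 79.3% of H3K9acS10ph peaks, a median distance of 726 bp, decile differences of 38.1 and 34.9 for H3K9acS10ph and 8.22 and 58.3 for JIL-1, and 0.767 and 1.78 marks, which depend on that choice by width. With JIL-1 cut to 6873 peaks the shares were 58.6% and 70.0%, the median distance 1178 bp, the mean 0.740, the decile differences 73.7 and 62.6 for H3K9acS10ph and 12.2 and 51.1 for JIL-1, and the JIL-1 list differed by 1.94 marks. Within the middle 50% of widths the score differences were 51.2 for H3K9acS10ph and -2.68 for JIL-1, with 1.23 and 1.83 marks. Within the middle 50% of scores, a setting chosen after seeing the data, the width differences were 23.5 and 58.3, with 0.857 and 1.94 marks. The causes were not tested beyond what each setting changes by construction. All scaffolds, or the arms without X, moved none of these results beyond its counting interval. For single marks, all 64 alternative values stayed above 0, between 10.7 and 62.3 points. No paired analysis was possible because each antibody has 1 library. Depth, and so the completeness of each list, is unknown.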

Other observations

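Shared peaks of both lists also lay closer to the midpoints of the other marks. This distance does not require overlap with the mark, but the classes are still set by overlap of JIL-1 and H3K9acS10ph. The nearest H3K4me1 midpoint was 950.5 bp from shared and 2131 bp from single H3K9acS10ph peaks. For JIL-1 peaks these distances were 1020 and 3571.5 bp. The nearest H3K4me3 midpoint was 383 bp from the midpoint of a shared H3K9acS10ph peak in the median and 1383 bp from that of an H3K9acS10ph-only peak. For JIL-1 it was 534 bp at shared and 4837 bp at JIL-1-only peaks. H3K27ac midpoints were 850 and 4699 bp from shared and single H3K9acS10ph peaks, and 1225 and 7525 bp from those of JIL-1. The nearest H3K27acS28ph midpoint was 3905 bp from shared and 12902 bp from single H3K9acS10ph peaks, and 2942 and 18525 bp from those of JIL-1.

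Along the 5 large arms, in 121 windows of 1 Mb, JIL-1 had 7 to 154 peaks per window (median 103) and H3K9acS10ph 0 to 120 (median 57), with a Spearman rho of 0.86 between the counts as a description of neighbouring windows within 2 libraries. In the 116 windows with at least 20 H3K9acS10ph peaks, the share with JIL-1 was between 46.8% and 96.3%, with quartiles of 69.8% and 80.7%.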
